A study of Mus musculus with 16 samples.

Results

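The transcripts of 6 secreted acute-phase proteins, *Saa3*, *Saa1*, *Saa2*, *Lcn2*, *Hp* and *Ptx3*, were followed in mouse hamstring muscle during histidyl-tRNA synthetase–induced myositis. They were taken by gene symbol from a table of 26382 genes, where each of the 6 has 1 row. *Saa3* was chosen by its measured rise from the contralateral PBS leg to the injected leg, the largest among genes that rose in every mouse, so its levels in those legs describe the choice and are given without a test. The other 5 are genes of the same response, and their levels in these legs are likewise given as a description.

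Bulk RNA was sequenced in 16 libraries from 9 female C57BL/6 mice aged 8 to 10 weeks, with muscle taken at day 14. Histidyl-tRNA synthetase (HRS) is the enzyme that charges the histidine transfer RNA and is the target of anti–Jo-1 autoantibodies in human myositis. In mice m862 to m866, the left leg received recombinant HRS at 3 to 5 mg/mL (HRS leg, n = 5) and the right leg received PBS (contralateral PBS leg, n = 5). In m867 and m868 both legs were given PBS (PBS-only leg, n = 4 legs of 2 mice). Mice m860 and m861 received a fusion protein named with MBP at 2 to 3 mg/mL (HRS-MBP, n = 2, leg not given). Legs are taken from the sample titles, whereas the protocol describes 100 μL of protein divided over both hamstrings at 50 μL per side. All groups are of 1 genotype. No group analysed here received an unrelated protein, so the response to HRS and that to any injected protein cannot be told apart. The labelled tissue carried its defining transcripts in every library, since *Acta1* was at least 10672 and *Ckm* at least 5050 normalized counts.

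Acute-phase proteins are plasma and tissue proteins whose production rises in inflammation, mostly in the liver under interleukin-6 (IL-6), interleukin-1 and TNF. Some of them are also made outside the liver. Serum amyloid A1 and A2 are the main hepatic forms, while serum amyloid A3 in mice is made largely by macrophages, adipocytes and epithelium. Lipocalin-2 (*Lcn2*) binds bacterial siderophores and is stored in neutrophil granules, haptoglobin (*Hp*) binds free hemoglobin and is also made by fat, and pentraxin 3 (*Ptx3*) is a soluble pattern recognition molecule made by fibroblasts, endothelium and myeloid cells.

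The 3 serum amyloid A genes lie close together on chromosome 7. By the deposited coordinates, which match GENCODE M21 on GRCm38, *Saa3* lies at chr7:46711998-46715700 on the minus strand, *Saa1* at chr7:46740497-46742980 on the minus strand and *Saa2* at chr7:46751790-46754313 on the plus strand. The others are *Lcn2* at chr2:32384633-32388252 (minus), *Hp* at chr8:109575128-109579172 (minus) and *Ptx3* at chr3:66219910-66225805 (plus). All 6 are protein-coding, and their principal transcripts have 3 to 6 exons and 555 to 1898 bases. The transcripts of *Saa1* and *Saa2* were 87.3% identical on alignment, against 60.3% for *Saa1* and *Saa3* and 60.1% for *Saa2* and *Saa3*. Of 603 stretches of 50 bases in *Saa2*, 51 also occurred in *Saa1*, whereas 0 of 506 in *Saa3* occurred in *Saa2* and 9 occurred in *Saa1*. Reads of *Saa1* and *Saa2* can therefore be split between the pair, and their separate values are uncertain. With *Saa3* far more abundant, the stretches it shares with *Saa1* could also bring *Saa3* reads into the count of *Saa1*, which was not tested.

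The sequences before these 3 genes are shown because the genes differed in level by a wide margin (below the sequences, each value is given by library). They are RefSeq sequences of GRCm38.p6, written 5′ to 3′ in the direction of the gene, from 250 bases before the RefSeq start to the base before the first annotated exon. Capitals mark the match to TTGCNNAA, the letters searched for the C/EBP family, whose members bind many acute-phase promoters. *Saa3* is at chr7:46715701-46715926 on the minus strand, *Saa1* at chr7:46742981-46743230 on the minus strand and *Saa2* at chr7:46751583-46751789 on the plus strand.
Saa3: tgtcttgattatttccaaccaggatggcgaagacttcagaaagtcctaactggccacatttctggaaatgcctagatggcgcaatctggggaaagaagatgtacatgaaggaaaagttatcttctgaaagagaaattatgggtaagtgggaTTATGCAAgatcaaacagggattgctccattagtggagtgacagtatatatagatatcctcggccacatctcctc
Saa1: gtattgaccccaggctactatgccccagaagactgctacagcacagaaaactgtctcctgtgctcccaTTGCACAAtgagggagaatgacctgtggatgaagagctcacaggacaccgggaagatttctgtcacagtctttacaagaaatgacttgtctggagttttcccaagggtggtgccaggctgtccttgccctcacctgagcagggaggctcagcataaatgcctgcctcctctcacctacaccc
Saa2: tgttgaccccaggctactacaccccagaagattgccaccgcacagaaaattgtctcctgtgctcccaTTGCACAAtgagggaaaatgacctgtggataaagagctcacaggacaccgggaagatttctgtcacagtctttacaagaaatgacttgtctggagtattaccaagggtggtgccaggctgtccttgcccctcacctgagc

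Over windows of 300 bases around the start, *Saa1* and *Saa2* were 95.3% identical, while *Saa3* was 49.5% identical to *Saa1* and 49.1% to *Saa2*. Promoter windows were found for 5 of the 6 genes (*Saa3*, *Saa1*, *Saa2*, *Lcn2* and *Ptx3*), and each held 1 match to TTGCNNAA on either strand. The matches began 99 bases before the start in *Saa3*, 182 in *Saa1*, 183 in *Saa2*, 216 in *Lcn2* and 57 in *Ptx3*. Of 32851 promoter windows of the same length, 10.8% held these letters. The letters TTCNNNGAA (STAT) occurred in 8.30% of all windows and in none of these 5. Likewise TGANTCA (AP-1) occurred in 7.81% of all windows, the NF-κB motif searched in 1.47% and the TATA box, TATAAA, in 13.6%, and none of them in these 5. A match describes the letters only, and a missing one says no more than that they are not in this window.

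Values are normalized counts, that is, read counts scaled by the authors, with no division by gene length. From the smallest step between values, the libraries held about 37300000 to 73900000 reads in HRS legs, 24700000 to 72800000 in contralateral PBS legs, 8600000 to 40700000 in PBS-only legs and 37300000 to 39600000 in HRS-MBP. The shallowest library was the right leg of m868, where 3 reads correspond to 0.364 normalized counts. The HRS leg of m866 stood apart from the other HRS legs. Its 12 fibroblast markers summed to 2782, against 15485 to 27442 in the other 4, and 10 muscle fibre markers reached 174326, which is within the range of contralateral PBS legs (126771 to 207811). Results are therefore also given without it. Between HRS and contralateral PBS legs, 3810 of 16414 tested genes were called (adjusted p below 0.05 by limma and an absolute log2 difference above 1; 23.2%), with 73.0% of them higher in HRS legs. That share was 56.2% after quantile normalization, which moved the median log2 difference of all genes from 0.08 to -0.16.

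*Saa3* was the most changed of the 6. In HRS legs it was 407, 362, 1222, 134 and 87.6 normalized counts in m862 to m866, with a mean of 443 ± 457 (SD, n = 5). Their PBS legs on the other side had 1.38, 0.725, 14.2, 3.65 and 3.82 (mean 4.76 ± 5.46, n = 5). PBS-only legs had 4.85 and 1.99 in the left and right leg of m867, and 2.67 and 7.28 in m868 (mean 4.20 ± 2.39, n = 4). All HRS legs lay above all PBS legs. The spread among HRS legs was about as large as their mean.

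**Figure D1:**
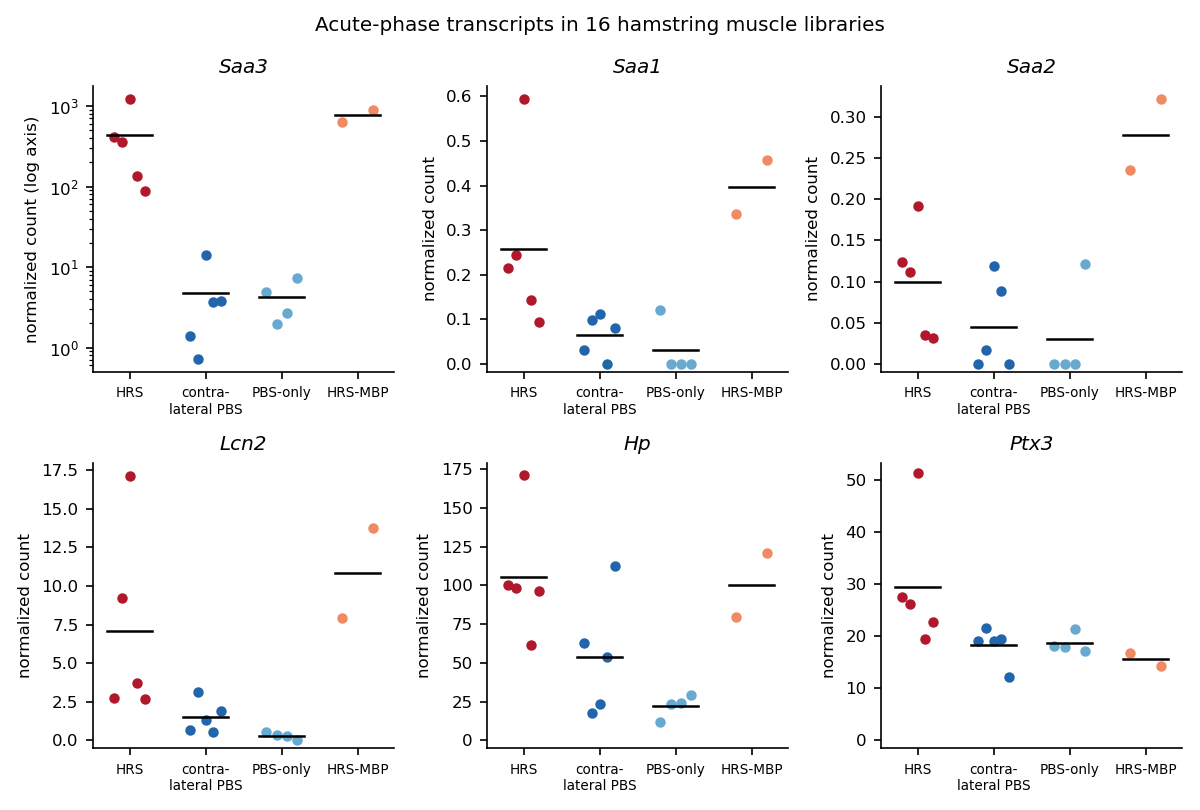
Normalized counts of the 6 transcripts in each of 16 libraries, by group, with a line at the group mean. The y axis of Saa3 is logarithmic and the others are linear, and Saa3 runs from 0.725 in a contralateral PBS leg to 1222 in an HRS leg.

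Within each mouse, the HRS leg exceeded the PBS leg by 295, 499, 85.9, 36.9 and 22.9 times in m862 to m866. On the scale of log2(normalized count + 0.5), the differences ran from 4.35 in m866 to 8.21 in m863, with a mean of 6.34 ± 1.67 (SD, n = 5 mice). The mouse with the most *Saa3* in its HRS leg, m864, also had the most in its PBS leg, at 14.2, which was 1.16% of the level on the other side. The next genes in that order of rises were *Marco* and *Acod1*, at 6.10 and 5.91.

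**Figure D2:**
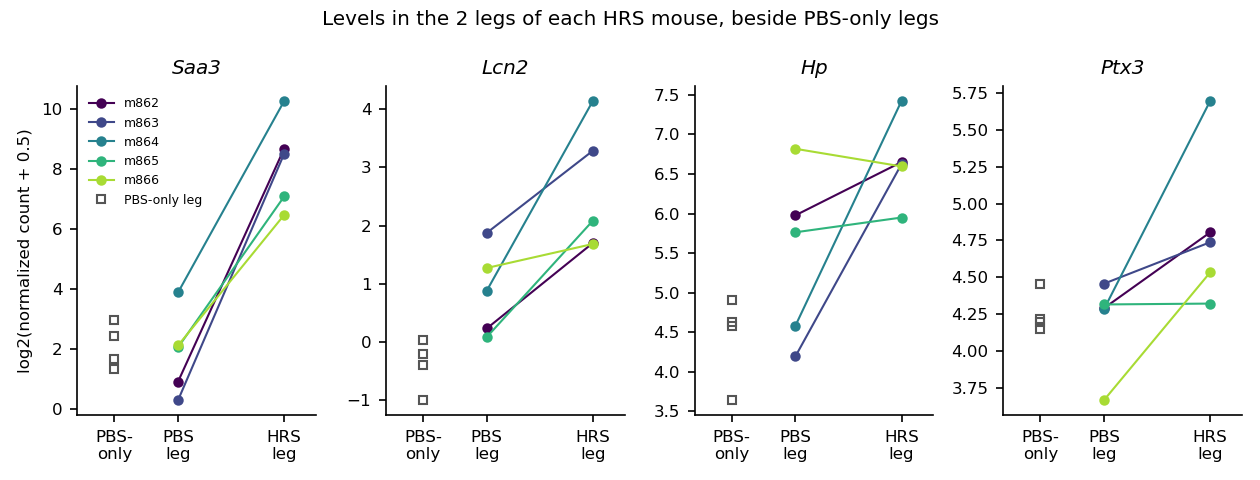
Levels in the contralateral PBS leg and HRS leg of 5 mice, joined by a line for each mouse, with 4 PBS-only legs as open squares; the y axis is log2(normalized count + 0.5). Saa3 rises steeply in all 5 mice, while the line of m866 falls for Hp, from 112 to 96.3 normalized counts.

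*Saa1* and *Saa2* were almost absent, in contrast to *Saa3*. *Saa1* was 0.214, 0.245, 0.594, 0.142 and 0.0935 normalized counts in the HRS legs of m862 to m866, which corresponds to 3 to 33.2 reads per library. In contralateral PBS legs *Saa1* was worth 12.4 reads over 5 libraries, in PBS-only legs 3 reads in 1 of 4 libraries, and in HRS-MBP 16.5 and 20.6 reads. These values are small sums of reads, and one contralateral library held only a fraction of a read.

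*Saa2* was lower still, at 0.124, 0.111, 0.192, 0.0356 and 0.0312 normalized counts in HRS legs, or 1 to 10.8 reads per library. It reached 11.5 and 14.4 reads in HRS-MBP, at most 3 reads in contralateral PBS legs and 1 read in PBS-only legs. Neither gene passed the filter of a mean of 0.5 normalized counts over 16 libraries, so neither was tested. Set per kb of transcript, *Saa3* made up 99.87% to 99.94% of the summed level of the 3 genes in HRS legs and 99.92% in both HRS-MBP libraries. Its share was 87.4% to 98.6% in contralateral PBS legs and 97.8% to 100% in PBS-only legs, where it rests on few reads of *Saa1* and *Saa2*.

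Lipocalin-2 was 2.75, 9.25, 17.1, 3.74 and 2.71 normalized counts in the HRS legs of m862 to m866, with a mean of 7.12 ± 6.23 (SD, n = 5). The PBS legs of these mice had 0.673, 3.16, 1.34, 0.559 and 1.91 (mean 1.53 ± 1.06). In PBS-only legs *Lcn2* was 0.526 and 0.369 in m867 and 0.261 and 0 in m868. The HRS leg was higher in 5 of 5 mice, by 1.42 times in m866 to 12.8 times in m864, although the lowest HRS legs overlapped the highest contralateral leg. Against PBS-only legs there was no overlap. The value of 0 comes from the shallowest library, which allows up to 0.364.

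Haptoglobin was the most abundant of the 6 in control muscle per kb of transcript. It was 100.003, 98.2, 171, 61.3 and 96.3 normalized counts in the HRS legs of m862 to m866 (mean 105.4 ± 40.1, n = 5), and 62.5, 17.8, 23.4, 53.8 and 112 in their PBS legs (mean 54.0 ± 37.8, n = 5). PBS-only legs had 11.97 and 23.4 in m867 and 24.1 and 29.5 in m868 (mean 22.2 ± 7.37, n = 4). HRS legs did not overlap PBS-only legs but did overlap contralateral PBS legs, and *Hp* was higher in the HRS leg of 4 of 5 mice. The exception was m866, whose PBS leg held the highest *Hp* of all 9 PBS legs.

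That PBS leg also had the highest level of fat transcripts. Of 9 adipocyte markers, *Car3* is also expressed by muscle fibres and made up 52.9% to 90.8% of their sum, so the sum is given for the other 8, a choice made after the values were seen. It was 5168 in that leg, against 460 to 933 in the other contralateral PBS legs, 551 to 963 in PBS-only legs, 165 to 780 in HRS legs and 231 to 355 in HRS-MBP. With *Car3*, the sum was 10966 in that leg. *Adipoq*, which encodes the adipocyte hormone adiponectin, was 344 there, against 21.6 to 51.1 in the other contralateral PBS legs, 26.4 to 63.9 in PBS-only legs and 3.82 to 36.7 in HRS legs. The part of fat in the *Hp* level of that leg was not tested. In HRS legs, 8 of 9 adipocyte markers were lower than in contralateral PBS legs, beside 6.27% of all tested genes, while *Hp* was higher in 4 of 5 mice. With mouse as a block or after quantile normalization 7 were lower, without *Car3*. Against PBS-only legs 2 of 9 were lower, beside 5.87% of all tested genes.

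Pentraxin 3 had the smallest difference between HRS and contralateral PBS legs among the 4 genes that passed the filter. It was 27.4, 26.2, 51.4, 19.5 and 22.7 normalized counts in HRS legs (mean 29.4 ± 12.6, n = 5) and 19.1, 21.5, 18.98, 19.4 and 12.2 in contralateral PBS legs (mean 18.2 ± 3.52, n = 5). PBS-only legs had 18.1 and 17.8 in m867 and 21.4 and 17.2 in m868. The HRS leg was higher in 5 of 5 mice, but in m865 only by 1.004 times. The HRS leg of m865 lay within the range of PBS legs, and the other 4 lay above all 9 PBS legs.

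The genes were chosen with the contrast of HRS and contralateral PBS legs known, so their differences in it are given with no test. Of the 6, *Saa3*, *Lcn2*, *Hp* and *Ptx3* passed the filter on low values. The log2 differences were 6.34 ± 0.69 (SE) for *Saa3*, 1.71 ± 0.46 for *Lcn2*, 1.18 ± 0.42 for *Hp* and 0.62 ± 0.21 for *Ptx3*, beside a median of 0.08 over all genes. The legs did not overlap for 1 of these 4, *Saa3*, against 18.3% of all genes, and 3 of 4 were higher in all 5 mice, against 26.3% of all genes. The difference of *Hp* was 0.99 without the HRS leg of m864, 0.86 without the contralateral PBS leg of m863 and 0.96 without that of m864. Without the HRS leg of m866, the log2 differences were 6.78 for *Saa3*, 1.94 for *Lcn2*, 1.196 for *Hp* and 0.69 for *Ptx3*. Without that of m864, they were 5.83 for *Saa3*, 1.32 for *Lcn2* and 0.40 for *Ptx3*.

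Against PBS-only legs, where the HRS legs are again those on which *Saa3* was picked, the differences are likewise a description. On the log2 scale they were 6.10 for *Saa3*, 2.97 for *Lcn2*, 2.21 for *Hp* and 0.56 for *Ptx3*. That of *Lcn2* depended on the pseudocount, and was 1.76 with the larger and 3.97 with the smaller one tried. The legs did not overlap for *Saa3*, *Lcn2* and *Hp*, as for 26.6% of all genes. The means of *Lcn2* and *Hp* were 24.6 and 4.74 times those of PBS-only legs, against 4.66 and 1.95 times those of contralateral PBS legs. Both comparisons share the HRS legs.

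In HRS-MBP, *Saa3* was 634 and 901 normalized counts in m860 and m861, *Lcn2* was 7.92 and 13.8, and *Hp* was 79.3 and 121. All of these values lay above all 4 PBS-only legs (39.8% of all genes were higher without overlap) and the log2 differences were 7.47, 3.85 and 2.19, given as a description. *Ptx3*, at 16.8 and 14.3, was below all PBS-only legs, with a log2 difference of -0.26, where 30.6% of all genes were lower without overlap.

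Whether the 2 preparations differed was asked in a comparison other than the one that picked *Saa3*, although protein, dose, mice and leg cannot be told apart in it and its HRS legs are those on which *Saa3* was picked. By limma, 0 of the 3 other members that passed the filter (*Lcn2*, *Hp* and *Ptx3*) were called between HRS-MBP and HRS legs, where 0.463% of all genes were called, and 1 of them, *Ptx3*, had an unadjusted p below 0.05, as did 14.4% of all genes. Limma-voom also called 0. *Ptx3* was lower in both HRS-MBP libraries than in all 5 HRS legs, with a log2 difference of -0.82 (95% interval -1.41 to -0.23, unadjusted p = 0.00996, adjusted p = 0.208 by limma, 0.0796 to 0.999 over the alternatives). Of all genes, 8.4% were lower without overlap. *Lcn2* differed by 0.88 (-0.42 to 2.17, adjusted p = 0.522) and *Hp* by -0.03 (-1.22 to 1.16, adjusted p = 0.987). For *Saa3* the log2 difference was 1.37, given with no test, and both HRS-MBP libraries lay within the range of HRS legs.

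A second comparison asked whether the PBS leg of a mouse with an HRS leg differed from the legs of mice given PBS alone. Its contralateral PBS legs are the reference of the rise on which *Saa3* was picked, a choice that favours low *Saa3* in these legs, so for *Saa3* its values are a description. *Lcn2* was higher in all 5 contralateral PBS legs than in all 4 PBS-only legs, with means of 1.53 and 0.289 normalized counts and a log2 difference of 1.26 (95% interval 0.22 to 2.29). Its lowest value in contralateral PBS legs was 0.559 and its highest in PBS-only legs 0.526. It was not called (unadjusted p = 0.0208, adjusted p = 0.84 by limma, 0.656 to 1 over the alternatives), and 2.3% of all genes were higher without overlap. Over the pseudocounts tried, its log2 difference ran from 0.58 to 1.99. *Hp* had means of 54.0 and 22.2 and a log2 difference of 1.03 (0.08 to 1.98, unadjusted p = 0.0359, adjusted p = 0.869 by limma, 0.688 to 1 over the alternatives), with overlap. The difference of *Ptx3* was -0.05 (-0.53 to 0.42), within its spread, and that of *Saa3* was -0.24, with no test. Without the contralateral PBS leg of m866, that of *Hp* was 0.69. By limma and by limma-voom, 0 of *Lcn2*, *Hp* and *Ptx3* were called, 2 of these 3 had an unadjusted p below 0.05 in the limma fit, as did 5.5% of all genes, and 0.00609% of all genes, a single gene, was called. That gene was *Nr4a2*, an immediate early nuclear receptor, lower by a log2 difference of -1.88 (adjusted p = 0.0354 by limma). The intervals and p-values of this comparison, with the call of *Nr4a2*, rest on 4 PBS-only legs from 2 mice, which were fitted as separate. With those legs averaged per mouse 0 genes were called.

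**Figure D3:**
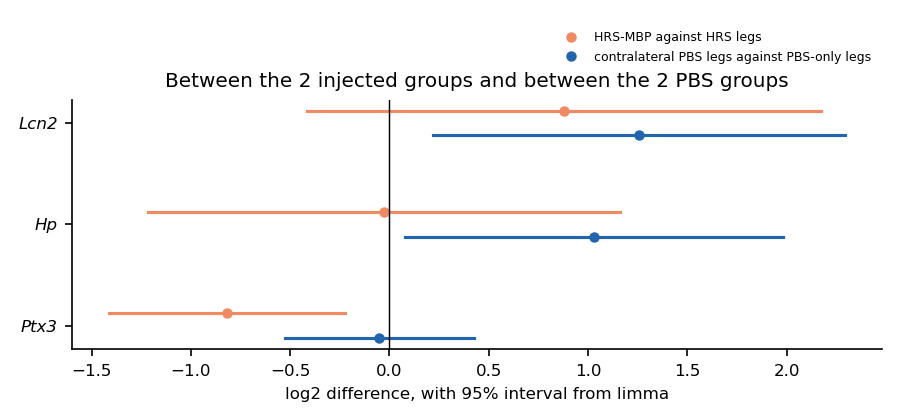
Log2 differences of Lcn2, Hp and Ptx3, with 95% intervals from limma, for HRS-MBP against HRS legs (orange) and contralateral PBS legs against PBS-only legs (blue). The intervals of Ptx3 (orange), Lcn2 and Hp (blue) lie to one side of 0, and no adjusted p passed the threshold. For the blue intervals, PBS-only legs of the same mouse were fitted as separate.

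Levels of different genes were compared per kb of transcript. In HRS legs the order was *Saa3* (797 ± 824, SD, n = 5), *Hp* (78.4 ± 29.8), *Ptx3* (15.5 ± 6.66), *Lcn2* (7.78 ± 6.81), *Saa1* (0.423 ± 0.324) and *Saa2* (0.152 ± 0.103). Each gene was above the next in all 5 legs, although the ranges of *Ptx3* and *Lcn2*, and of *Saa1* and *Saa2*, overlapped. In PBS-only legs the order was *Hp* (16.5 ± 5.48, n = 4), *Ptx3* (9.83 ± 0.999), *Saa3* (7.56 ± 4.30), *Lcn2* (0.316 ± 0.242), *Saa1* (0.0498) and *Saa2* (0.0465). There *Hp* overlapped *Ptx3* and *Ptx3* overlapped *Saa3*, with *Ptx3* above *Saa3* in 3 of 4 legs. In contralateral PBS legs *Saa3* (8.58 ± 9.85, n = 5) came after *Ptx3* (9.60 ± 1.85) and was below it in 3 of 5 legs and below *Lcn2* in 1.

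**Figure D4:**
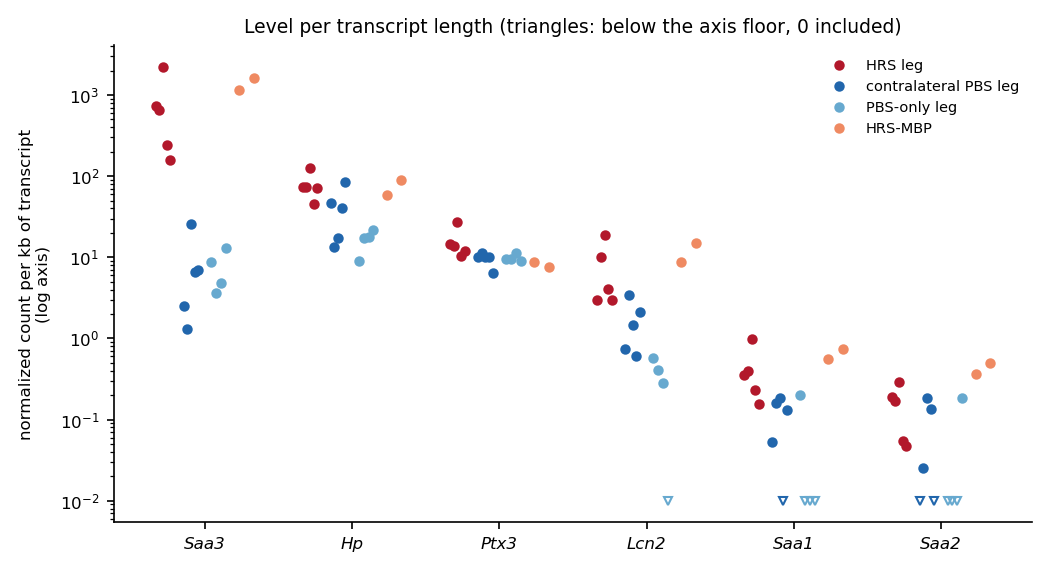
Normalized counts per kb of transcript on a logarithmic axis, for each gene and each of 16 libraries, colored by group; triangles mark values below 0.01, including 0. Saa3 spreads widely in contralateral PBS legs, below Ptx3 in 3 of 5, and lies above all other members in HRS and HRS-MBP legs, and Saa1 and Saa2 stay below 1.

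Over all 16 libraries, the genes whose log2 values were most like those of *Saa3* were *Marco*, a macrophage scavenger receptor (Pearson r = 0.992), *Acod1*, which makes itaconate (0.988), and *Clec4e*, a myeloid lectin (0.987). *Marco* ran from 37.9 to 280 in HRS legs, 0.32 to 4.25 in contralateral PBS legs, 0.398 to 2.18 in PBS-only legs and 199 to 369 in HRS-MBP. The measure was also computed on deviations from the 4 group means. The highest were then *Marco* (0.934), *Fpr1* (0.915), *Acod1* (0.911), *Aif1* (0.899) and *Tnni3* (0.893). *Fpr1* is a formyl peptide receptor, *Aif1* marks macrophages and *Tnni3* is the cardiac troponin I. These are descriptions over libraries that share groups and mice. Among the members, the log2 values of *Saa3* had r = 0.87 with *Saa1*, 0.83 with *Lcn2*, 0.78 with *Saa2*, 0.72 with *Hp* and 0.41 with *Ptx3*. The deviations from group means had 0.67 with *Saa1*, 0.32 with *Lcn2*, 0.84 with *Saa2*, 0.24 with *Hp* and 0.41 with *Ptx3*. Those of *Saa1* and *Saa2* rest on few reads, which in *Saa1* may be shared with *Saa3*.

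Marker genes of other cells moved with the groups. In bulk tissue, more cells of a type and more RNA per cell cannot be told apart. All 13 tested monocyte and macrophage markers were called higher in HRS than in contralateral PBS legs (12 after quantile normalization, which lost *Nos2*), beside 16.9% of all tested genes. Of the 13, 1 passed the filter only through the legs given HRS or HRS-MBP. The list does not hold *Cd163*, a macrophage receptor placed among the partners of the members, which was called lower (given below). The summed level of the 13 was 1158 to 5736 in HRS legs against 111 to 291 in contralateral PBS legs, 114 to 228 in PBS-only legs and 4740 to 4761 in HRS-MBP. Of 14 neutrophil markers, 10 were tested and 8 were higher (7 with mouse as a block, which lost *Mpo*), with sums of 2.12 to 106 in HRS legs, 1.15 to 4.58 in contralateral PBS legs, 0.767 to 2.06 in PBS-only legs and 7.47 to 31.9 in HRS-MBP. These 8 genes had a mean below 0.5 over the 9 PBS legs, so that they passed the filter only through the legs given HRS or HRS-MBP, and their count is no support for a rise of the list. Neither of the other 2 was called. The neutrophil gene *Ly6g* was at 0 in all 9 PBS legs and at most 0.27 in HRS legs. *S100a9* and *S100a8*, the calprotectin subunits, had the largest differences of that list (3.68 and 3.29). In the HRS leg of m866, *Saa3* was 87.6, *S100a8* was 0.343 and the neutrophil markers summed to 2.12, which is within the range of contralateral PBS legs. Both *Saa3* and the sum of the monocyte and macrophage markers (1158) were lowest in that leg among HRS legs. The source of *Saa3* was not tested.

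**Figure D5:**
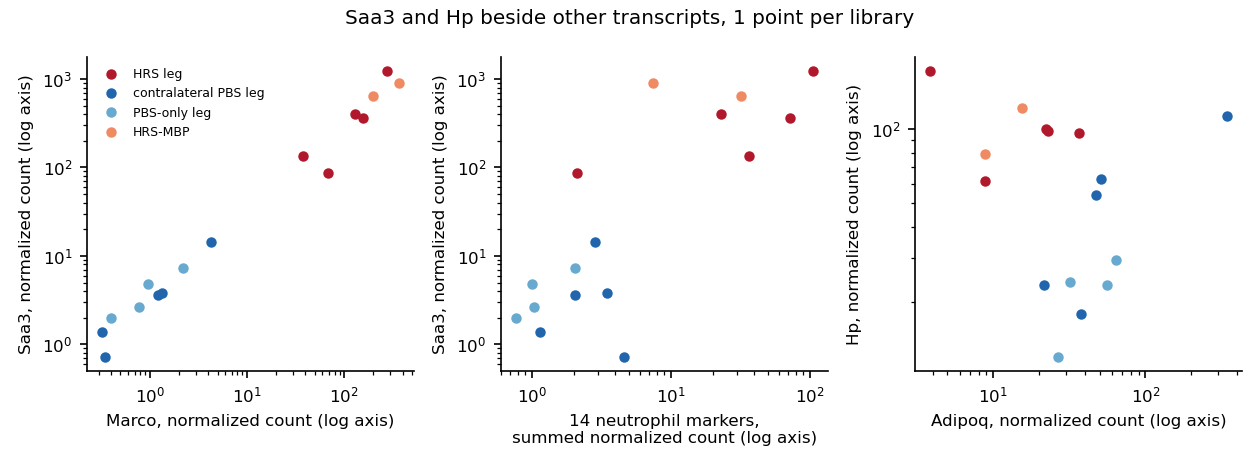
One point per library, all axes logarithmic and in normalized counts: Saa3 against Marco, Saa3 against the sum of 14 neutrophil markers, and Hp against Adipoq. Saa3 follows Marco within and between groups, whereas the highest Adipoq, 344, belongs to a contralateral PBS leg with Hp at 112.

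Transcripts known chiefly from liver differed in level. *Alb* (albumin) was at most 0.291 in HRS legs and 1.40 in contralateral PBS legs, *Apoa1* at most 0.0357 in HRS legs and 0.114 in any library, and *Ahsg* at most 0.143. Others of the list of 14 negative acute-phase and liver genes were well above 0, so that its sum ran from 74.2 to 692 over the libraries of the 4 groups. *Trf* (transferrin) was 67.7 to 122 in HRS legs, 55.3 to 407 in contralateral PBS legs and 39.5 to 110 in PBS-only legs. *Cyp2e1*, a cytochrome P450 also found in fat, was 1.72 to 33.4, 18.9 to 239 and 23.7 to 38.3 in these groups, with its highest value in the contralateral PBS leg of m866. Of the list, 4 genes passed the filter, and *Cyp2e1* alone was called lower in HRS legs (-2.52), joined by *Rbp4* after quantile normalization. Between HRS and contralateral PBS legs, 16.9% of all tested genes were called higher and 6.27% lower, beside the counts that follow. All 8 tested lymphocyte markers were higher, but 6 of the 8 had passed the filter only through the legs given HRS or HRS-MBP. They were led by *Cd4* (4.0002) and *Trac* (2.87). Of 12 fibroblast markers 6 were higher (9 after quantile normalization), led by the matrix genes *Postn* (3.90) and *Col1a1* (3.40). Of 8 endothelial markers 0 were called by limma and 4 had an unadjusted p below 0.05 (median log2 difference 0.06), and of 5 red blood cell markers 0 were called (1 lower after quantile normalization, *Alas2*) and all 5 had such a p (median -0.69). Of 9 adipocyte markers 8 were lower, as given above, with *Lep* (-2.43) and *Cfd* (-2.23) first. Of 10 muscle fibre markers 5 were lower, including *Actn3* (-1.43) and *Pygm* (-1.36), but 0 were called with mouse as a block or after quantile normalization. Without the HRS leg of m866, 9 fibroblast and 9 neutrophil markers were higher and 7 muscle fibre markers lower. The part of these cells in the levels of the 6 genes was not tested.

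The other acute-phase genes were described from a list of 35, of which 29 were in the table and 17 passed the filter. Between HRS and contralateral PBS legs, 11 were higher and 1 was lower, beside 16.9% and 6.27% of all tested genes. Of these 11, 3 passed the filter only through the legs given HRS or HRS-MBP. One was *Il1rn*, with means of 0.506 in contralateral PBS legs and 0.252 in PBS-only legs. Among genes that PBS legs alone would have let through, 8 of 14 were higher, beside 14.1% of all such genes. The serpin *Serpina3g* (5.17) and the interleukin-1 receptor antagonist *Il1rn* (3.97) had the largest differences, and the complement genes *Cfb* (3.65) and *C3* (1.99) were also higher. *C3*, the central complement component, was 513 to 2014 normalized counts in HRS legs, 117 to 403 in contralateral PBS legs and 79.9 to 229 in PBS-only legs. Ceruloplasmin (*Cp*) rose by 1.44 on the log2 scale. *Serpina3n* had a log2 difference of 1.02 and missed the threshold (adjusted p = 0.0506 by limma). The one lower gene was *Orm1*, which encodes orosomucoid 1, at 0.445 to 3.02 in HRS legs and 2.31 to 18.98 in contralateral PBS legs (-1.70, adjusted p = 0.0085 by limma). *Crp* was at most 0.249 and *Hpx*, the heme carrier hemopexin, at most 0.712 in any library, and neither was tested.

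Of the cytokines that induce acute-phase genes, 9 of 17 passed the filter and 8 were higher in HRS legs. Of these 8, 4 passed the filter only through the legs given HRS or HRS-MBP, with a mean below 0.5 over the 9 PBS legs, so that the count is no support for a rise of the list. *Il1b* was 2.65 to 31.1 against 0.0641 to 0.508 in contralateral PBS legs (3.91), and *Tnf* was 4.55 to 19.5 against 0.0588 to 0.6 (3.46). *Ifng* (1.89), *Osm* (1.496) and *Lif* (1.21) were also higher, but *Lif* was not called after quantile normalization. The tested cytokine that was not called in the main fit, *Ctf1*, was then called lower. *Il6* itself did not pass the filter, at 0.392 to 0.84 in HRS legs, 0 to 0.132 in contralateral PBS legs, 0 to 0.391 in PBS-only legs and 0.2 to 0.326 in HRS-MBP. The lowest HRS leg was just above the highest PBS leg.

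Of the 16 receptors of these cytokines tested, 8 were higher, beside 16.9% of all tested genes. Of these 8, 1 passed the filter only through the legs given HRS or HRS-MBP. Among genes that PBS legs alone would have let through, 7 of 15 were higher, beside 14.1% of all such genes. *Ifngr1*, a receptor chain for interferon gamma, was not called with median-of-ratios scaling, nor *Il1r2*, the interleukin-1 decoy receptor, after quantile normalization. The largest differences were those of *Csf3r*, the G-CSF receptor (4.19), and *Tnfrsf1b*, a TNF receptor (3.25). Of 25 transcription factors and feedback genes, 23 were tested and 15 were higher, 1 of which passed the filter only through the legs given HRS or HRS-MBP. Without that gene, 14 of 22 were higher. The higher genes included *Socs1* (2.76), a feedback inhibitor of interferon signaling. *Nfkbiz* (2.19), a coactivator of *Lcn2* in other cells, and *Socs3* (1.74), which limits IL-6 signaling, were higher too. *Stat3* (0.71), *Cebpb* (0.26) and *Cebpd* (0.49) did not reach a log2 difference of 1.

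Receptors and partners of the 6 proteins were tested in 25 of 28 cases, with 17 higher and 1 lower, beside 16.9% and 6.27% of all tested genes. Quantile normalization left 16 higher, without *Ager*, and also called *Fgf2* lower. Of the 17, 3 passed the filter only through the legs given HRS or HRS-MBP, among them *Fpr2* and *Fpr1*. Among genes that PBS legs alone would have let through, 14 of 22 were higher, beside 14.1% of all such genes. *Fpr2* and *Fpr1*, formyl peptide receptors of which the first binds serum amyloid A, were higher by 4.74 and 4.69, and *Fpr2* was 13.6 to 91.8 in HRS legs against 0.108 to 1.34 in contralateral PBS legs. *Mmp9*, the protease that lipocalin-2 binds, was higher by 2.36 and *Tnfaip6*, a matrix partner of pentraxin 3, by 1.96. *Slc22a17*, a proposed lipocalin-2 receptor, had a log2 difference of 0.97 and was called when the HRS leg of m866 was left out, which gave 18 higher genes in this list. For haptoglobin, the scavenger receptor *Cd163* was the lower gene of the main fit, at 4.54 to 7.17 in HRS legs against 9.49 to 27.0 in contralateral PBS legs (-1.57, adjusted p = 0.000228 by limma), while *Hmox1*, which degrades heme, was higher by 3.16.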

How the data were processed

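RNA was selected for poly(A) and libraries were made with a directional kit. The authors deposited normalized counts, a signal that is never negative, and per the labels used STAR 2.7.8a and limma with mm39. The deposited gene coordinates match GENCODE M21 (GRCm38), however: of 26382 genes, 25652 matched by symbol and chromosome, 98.9% of them with the same start and end. How the counts were scaled is not given in the sources used here. Only 74.7% to 76.7% of a library's small values came to a whole number of its smallest steps (within 0.02), so reads were not taken as recovered. Depths and floors of 3 reads come from that step and cover counting error only.

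Genes with a mean of at least 0.5 (16414) were fitted as log2(value + 0.5) with limma 3.58.1 in R 4.3.3 (lmFit, eBayes with trend) over 4 groups, with Benjamini-Hochberg adjustment over all of them. Steps were tested on simulated data. Legs of the same mouse are paired by the mouse labels (correlation of deviations from the group means, -0.0025 on average, from -0.366 to 0.163), and the fit has no block. Named genes were the 6 members, a fixed list of pathway genes, the 2 largest called differences of each gene list, the 3 genes most like each member, 5 more for *Saa3*, and the gene called where a count over all genes was 1. One gene named by this rule is not reported here. The members and lists were chosen with earlier results of these data known. Alternatives covered the pseudocount, filter, scaling, variance model, block, libraries in the fit and each library left out. Sequencing platforms could not be assigned to libraries.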

Additional observations from a re-analysis of the deposited data

Results flagged for a closer look

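Among 24 sets of 4 or 5 values (the level of each member in 3 groups and its differences between legs), 6 held a value far from the others by Dixon's criterion, which chance meets in about 1 of 20 sets of continuous values. That rate does not apply to the sets of *Saa1* and *Saa2* in PBS-only legs, where 3 of 4 values are 0, and the sets share libraries, so nothing is read from the number. The HRS leg of m864 was highest for *Saa3* (1222 normalized counts) and for *Ptx3* (51.4), and the contralateral PBS leg of the same mouse was highest for *Saa3* (14.2). The contralateral PBS leg of m866 was lowest for *Ptx3* (12.2). In PBS-only legs, *Saa1* was above 0 only in the left leg of m867 (0.121, worth 3 reads) and *Saa2* only in the right leg of m868 (0.121, worth 1 read).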

How the results depend on the processing

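Between HRS-MBP and HRS legs, 76 genes were called, but 35 with a filter at a mean of 2 and 4 with only these groups fitted, the latter with fewer libraries for the spread. Leaving out 1 library gave 25 to 590: 590 without the HRS leg of m864, 180 without that of m866, 135 without HRS-MBP m860 and 25 without m861. The replicate block by mouse gave 66, and 3652 for HRS against contralateral PBS legs (3810 without it). Between contralateral PBS and PBS-only legs, the 1 gene became 0 with the smaller pseudocount, no filter, averaged PBS-only mice or only these groups fitted, and 2 after quantile normalization (0 to 2 with a library left out). The cause of these shifts was not tested. In these comparisons *Lcn2*, *Hp* and *Ptx3* were not called under any alternative run. Small log2 differences changed sign: *Hp* between HRS-MBP and HRS legs was 0.036 with median-of-ratios scaling and -0.33 to 0.28 with a library left out, and between contralateral PBS and PBS-only legs *Saa3* ran from -0.75 to 0.15 and *Ptx3* from -0.12 to 0.082. Depth limits *Saa1*, *Saa2* and *Il6*, and HRS-MBP has 2 libraries.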

Other observations

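The genes most like the other members over 16 libraries were given by the same measure as for *Saa3*. For *Hp* they were *Serpina3n* (r = 0.953), itself an acute-phase serpin, *Sumo3* (0.916) and *Tspo* (0.902). *Serpina3n* was 12.9 to 25.6 normalized counts in HRS legs, 3.36 to 25.4 in contralateral PBS legs, 1.74 to 8.49 in PBS-only legs and 20.6 to 21.3 in HRS-MBP. For *Lcn2* they were *Zfp992* (0.960), *Orai3* (0.959) and *Stk3* (0.956), and for *Ptx3* they were *Syt13* (0.852), *L3mbtl3* (0.805) and *Magoh* (0.774). For *Saa1* (*Gimap1os*, *Txn-ps1* and *Mxd1*) and *Saa2* (*Hal*, *Gfi1* and *Hmga1b*) the likeness rests on a few reads.

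Over all 9 PBS legs, *Saa3* ran from 0.725 to 14.2, *Lcn2* from 0 to 3.16, *Hp* from 11.97 to 112 and *Ptx3* from 12.2 to 21.5 normalized counts.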
